A study of Mus musculus with 6 samples.

Results

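The 8 genes described here encode enzymes, transporters and assembly factors of the peroxisome: Acaa1a, Ehhadh, Hsd17b4, Crot, Abcd3, Pex5, Pex11a and Cat. They were chosen by name for their role, with earlier results of these data known, and all 8 were found among the 24421 genes of the expression table. Expression was measured by RNA-Seq in immortalized wild-type mouse PTECs, the epithelial cells of the renal proximal tubule, harvested 6 hours after PA-bound BSA (3 libraries) or BSA without PA (3 libraries). PA is palmitic acid, a saturated fatty acid carried by albumin, so both groups received BSA and the comparison asks what the added fatty acid changed. Values are RPKM, read numbers scaled to gene length and library size, so that genes of different length can be compared. The cells are an immortalized line in culture, and the sources do not say whether the 3 libraries of a treatment come from separate cultures. The p-values therefore cover only the spread among these libraries, part of which may be technical.

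Peroxisomes shorten fatty acids that mitochondria handle poorly, such as very-long-chain, branched-chain and dicarboxylic acids. Oxidation in this organelle makes hydrogen peroxide, which catalase breaks down on the spot. A bifunctional enzyme and a thiolase finish each round, and the shortened chains leave as carnitine esters for the mitochondria. Matrix enzymes are made in the cytosol and are brought in by import receptors. The proximal tubule is among the tissues richest in peroxisomes, and in rodent liver many of these genes are targets of PPARα, a nuclear receptor activated by fatty acids.

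The plotted RPKM values show that catalase and the import receptor gene rose in PA-treated PTECs, whereas the tested oxidation enzymes among the 8, the transporter and the division factor did not pass. Of the 8 genes, 7 were expressed highly enough to be tested (0.5 RPKM or more on average in the 6 libraries), and of these 2 rose, Cat and Pex5. None fell at an adjusted p under 0.05 in limma, although 1 was lower at an unadjusted p under 0.05, and limma voom on recovered read numbers also gave 2 higher and 0 lower. Over all genes tested, 2413 of 11671 were called, which is 20.7%, with 11.2% higher and 9.52% lower in PA-treated PTECs. The median log2 fold change of the 7 genes was -0.01, against -0.04 over all genes tested. In bulk samples such as these, fewer cells of a type and less RNA per cell cannot be told apart.

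**Figure D1:**
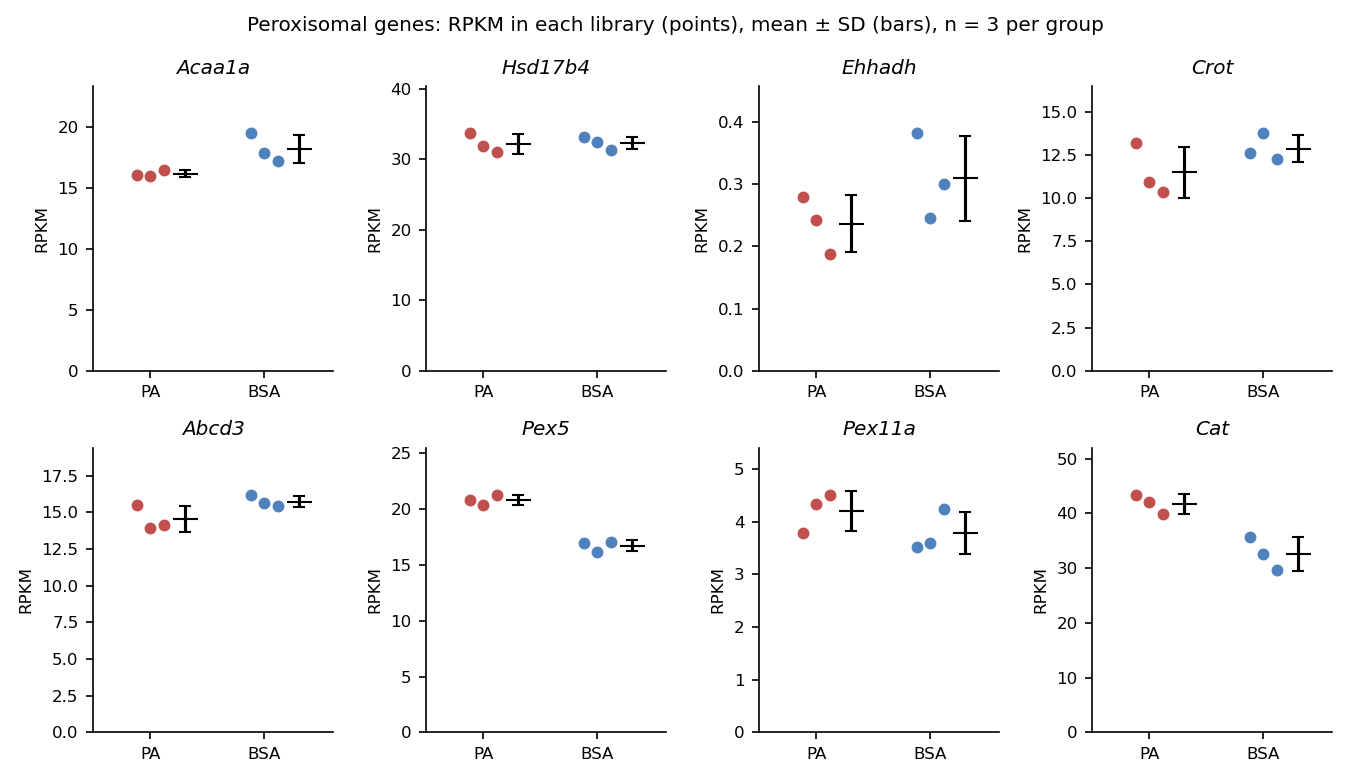
RPKM of each of the 8 genes (vertical axes, each from 0) in the 3 PA and the 3 BSA libraries, with points for libraries and bars for the mean ± SD. All PA libraries lie above all BSA libraries for Cat and Pex5 and below them for Acaa1a, and the groups overlap in the other 5 genes. Over all genes tested, all PA libraries lie above all BSA libraries in 18.2% and below them in 22.3%.

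The start regions of both genes that rose are shown beside that of Acaa1a, which was not called. Any part of the motifs in the expression values was not tested. Each window runs from 250 bases before to 50 bases after the annotated transcription start in RefSeq (GRCm38.p6), at chr2:103485104-103485403 on the minus strand for Cat, chr6:124415018-124415317 on the minus strand for Pex5 and chr9:119341044-119341343 on the plus strand for Acaa1a. Capitals mark the motifs found on either strand, which did not overlap one another.
Cat: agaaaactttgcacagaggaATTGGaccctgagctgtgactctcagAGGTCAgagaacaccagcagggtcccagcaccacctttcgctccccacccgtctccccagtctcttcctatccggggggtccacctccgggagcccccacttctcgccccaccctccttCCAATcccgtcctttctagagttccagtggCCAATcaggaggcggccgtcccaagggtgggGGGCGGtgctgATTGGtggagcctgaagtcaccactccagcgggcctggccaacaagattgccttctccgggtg
Pex5: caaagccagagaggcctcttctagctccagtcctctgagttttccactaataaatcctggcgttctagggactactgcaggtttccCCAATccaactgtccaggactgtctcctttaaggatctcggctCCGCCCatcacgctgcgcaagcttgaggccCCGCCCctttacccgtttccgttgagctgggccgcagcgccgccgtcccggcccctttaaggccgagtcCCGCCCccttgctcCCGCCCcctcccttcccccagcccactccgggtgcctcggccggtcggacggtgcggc
Acaa1a: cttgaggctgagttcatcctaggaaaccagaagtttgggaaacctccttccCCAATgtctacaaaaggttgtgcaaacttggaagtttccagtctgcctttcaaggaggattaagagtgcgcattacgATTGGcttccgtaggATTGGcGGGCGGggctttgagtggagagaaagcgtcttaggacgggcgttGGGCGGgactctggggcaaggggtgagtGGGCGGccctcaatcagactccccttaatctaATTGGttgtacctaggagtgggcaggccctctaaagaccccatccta
A total of 5 motifs were searched on both strands in the windows of the 7 genes for which one was used. CACGTG, the core of the CLEAR element bound by TFEB, was in none of their 10 windows and is in 7.15% of all 32851 promoter windows of this length. AGGTCA, a core element of nuclear receptor sites, was found in the Cat window alone and is in 16.3% of all windows. CCAAT occurred 4 times in the Cat window, 4 times in the Acaa1a window and 1 time in the printed Pex5 window, and is in 37.4% of all windows. GGGCGG, the GC box, was in at least 1 window of 6 of the 7 genes, with 4 copies in the printed Pex5 window, 3 in that of Acaa1a and 1 in that of Cat. It is in 35.7% of all windows, a share per window that is not like the count per gene, because Pex5 and Abcd3 have several windows. The Abcd3 windows and the Pex5 window that starts at 124415806 had none. TGACNNNGC, the core of the antioxidant response element, was in the Ehhadh window alone and is in 12.4% of all windows. These matches describe the letters of the windows only.

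Catalase, which turns hydrogen peroxide into water and oxygen, was the most highly expressed of the 8 genes in PA-treated PTECs and rose. Cat, on chromosome 2 from 103453849 to 103485160 (GRCm38), had 43.4, 42.2 and 39.8 RPKM in PA-treated PTECs, against 35.7, 32.5 and 29.6 RPKM in BSA-treated PTECs. The lowest PA library was above the highest BSA library, and the BSA libraries spread more widely than the PA libraries. The group means were 41.8 ± 1.81 RPKM with PA and 32.6 ± 3.03 RPKM with BSA (SD, n = 3 libraries each). This was a 1.28-fold rise, with a log2 fold change of 0.36 (95% interval 0.20 to 0.52) and an adjusted p of 0.0094 from limma. The gene was covered by 1335 to 2234 reads per library.

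Pex5, on chromosome 6 from 124396816 to 124415067, encodes the receptor that recognizes the C-terminal targeting signal of most peroxisomal matrix enzymes and carries them to the import pore. It had 20.8, 20.3 and 21.2 RPKM in PA-treated PTECs, against 16.9, 16.2 and 17.03 RPKM in BSA-treated PTECs. The groups were well apart, and the libraries of each lay within about 1 RPKM of each other. The rise was 1.24-fold, with a log2 fold change of 0.31 (95% interval 0.22 to 0.41) and an adjusted p of 0.0016 from limma. Both changes were below the absolute log2 fold change of 0.4 that the study required of a differentially expressed gene, a size reached by 6.29% of the genes tested together with the adjusted p. The 95% intervals of the Cat and Pex5 changes overlapped, and without BSA replicate 3 Cat had the smaller log2 fold change, 0.29 against 0.33 for Pex5. In the ranking of all tested genes by log2 fold change, Cat stood at percentile 93.6 and Pex5 at percentile 92.1.

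**Figure D2:**
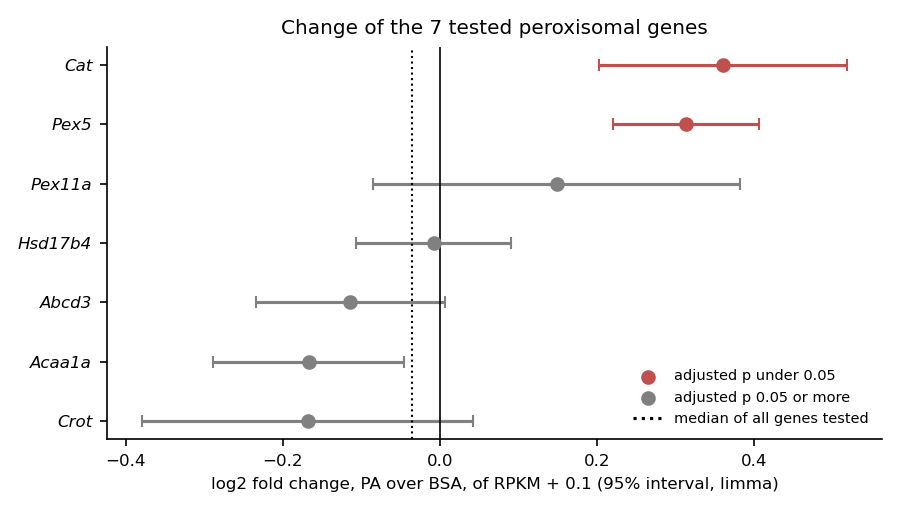
Log2 fold change of RPKM + 0.1, PA over BSA (horizontal axis), of the 7 tested genes with 95% intervals from limma, and a dotted line at the median of all genes tested, -0.04. The intervals of Cat (0.20 to 0.52) and Pex5 (0.22 to 0.41) lie above 0, and that of Acaa1a lies below 0 without passing the adjusted threshold.

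Acaa1a encodes the thiolase that performs the last step of each peroxisomal round. It had 16.1, 15.97 and 16.5 RPKM in PA-treated PTECs, against 19.5, 17.9 and 17.2 RPKM in BSA-treated PTECs. All PA libraries were below all BSA libraries, as in 22.3% of all genes tested, while all PA libraries were above all BSA libraries in 18.2%. The log2 fold change of -0.17 (95% interval -0.29 to -0.05) had an unadjusted p of 0.0135 and an adjusted p of 0.059 in limma, so it did not pass. It was called lower in 4 of 17 alternative fits (adjusted p from 0.0212 to 0.167 over the 17), and without BSA replicate 3 the log2 fold change was -0.21 with an adjusted p of 0.0212. Acaa1a lies on chromosome 9 from 119339676 to 119350299, and 34.03% of the 50-base windows of its transcript also occur in transcripts of other genes, chiefly its paralog Acaa1b. Reads could therefore be split or dropped by the authors' counting. Acaa1b itself was near the floor, at 0.178, 0.134 and 0.185 RPKM with PA and 0.209, 0.167 and 0.441 RPKM with BSA. The GENCODE exons of Acaa1a also overlap those of Myd88 on the opposite strand by 290 bases, and no source used here gives the strand setting of the counting. Myd88 had a log2 fold change of 0.07 (adjusted p = 0.456 from limma), and the part of either neighbor in the Acaa1a values was not tested.

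The bifunctional enzymes, which hydrate and then oxidize the chain in the middle of each round, differed greatly in level. Hsd17b4 encodes the D-bifunctional protein, which handles very-long-chain and branched-chain substrates. It had 33.7, 31.8 and 31.0 RPKM in PA-treated PTECs, against 33.1, 32.5 and 31.4 RPKM in BSA-treated PTECs. The groups overlapped fully, with a log2 fold change of -0.01 and a 95% interval from -0.11 to 0.09 (adjusted p = 0.921 from limma). This interval is narrow enough to leave out the size of the Cat and Pex5 changes. Ehhadh encodes the L-bifunctional enzyme, which in mice is tied to the oxidation of dicarboxylic acids and is a strongly induced PPARα target in mouse liver. It was too low to be tested, at 0.280, 0.242 and 0.188 RPKM in PA-treated PTECs, against 0.382, 0.246 and 0.301 RPKM in BSA-treated PTECs. These values correspond to 41 reads over the PA libraries and 55 over the BSA libraries. The ratio of read rates, PA over BSA, was 0.769 with an exact 95% interval from 0.5001 to 1.17, which covers counting error only. The interval includes no change, so these few reads do not settle whether Ehhadh changed. With no filter on low values, limma gave Ehhadh a log2 fold change of -0.28 with a standard error of 0.22 (adjusted p = 0.525). Per length, Hsd17b4 was 136-fold higher than Ehhadh in PA-treated PTECs and 104-fold higher in BSA-treated PTECs, as ratios of mean RPKM.

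The membrane transporter gene Abcd3 and the carnitine acyltransferase gene Crot did not pass the test. Abcd3 encodes a transporter, also called PMP70, that takes long-chain, branched-chain and dicarboxylic acyl-CoAs into the organelle. It had 15.5, 13.9 and 14.2 RPKM in PA-treated PTECs, against 16.2, 15.6 and 15.4 RPKM in BSA-treated PTECs, with only PA replicate 1 inside the BSA range. Its log2 fold change was -0.11 (95% interval -0.23 to 0.01, adjusted p = 0.159 from limma). Crot encodes carnitine octanoyltransferase, which makes the carnitine esters in which shortened chains leave. It had 13.2, 10.9 and 10.4 RPKM in PA-treated PTECs, against 12.6, 13.7 and 12.2 RPKM in BSA-treated PTECs. The PA libraries spread widely, PA replicate 1 lying within the BSA range and the other 2 below it. The log2 fold change was -0.17 (95% interval -0.38 to 0.04, adjusted p = 0.227 from limma), and without PA replicate 1 it was -0.27 with an adjusted p of 0.0391.

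Pex11a encodes a membrane protein that elongates peroxisomes before they divide and is induced by PPARα ligands in rodent liver. It had 3.78, 4.33 and 4.51 RPKM in PA-treated PTECs, against 3.52, 3.59 and 4.25 RPKM in BSA-treated PTECs. PA replicate 1 and BSA replicate 3 kept the groups from separating, and with 62 to 77 reads per library the gene was measured less precisely than the others tested. The log2 fold change of 0.15 had a 95% interval from -0.08 to 0.38 (adjusted p = 0.328 from limma), which includes the size of the Cat and Pex5 changes.

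Across the 8 genes the order of levels in BSA-treated PTECs ran from Cat and Hsd17b4, at 32.6 and 32.3 RPKM and not separated by their spread, through Acaa1a at 18.2 RPKM, to Pex5 and Abcd3, at 16.7 and 15.7 RPKM and again overlapping. Below these came Crot at 12.9, Pex11a at 3.79 and Ehhadh at 0.310 RPKM. In PA-treated PTECs the means were 41.8 RPKM for Cat, 32.2 for Hsd17b4, 20.8 for Pex5, 16.2 for Acaa1a, 14.5 for Abcd3, 11.5 for Crot, 4.205 for Pex11a and 0.237 for Ehhadh, and no range overlapped the next. Pex5 was above Acaa1a in 3 of 3 PA libraries and in 0 of 3 BSA libraries, and Cat was above Hsd17b4 in 3 of 3 PA libraries and 2 of 3 BSA libraries. Because these orders rest on the values already given, they are a description without a further test. They also depend on the gene lengths behind the values, whose annotation no source used here names. The smallest length that fitted the values was 879 bases for Pex11a and 2551 for Cat. The GENCODE exons of these genes cover 3182 and 2613 bases.

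A wider set of 59 peroxisomal genes, listed by role, was measured for comparison, of which 44 were high enough to test. Of those 44, 4 fell and 40 were not called, beside 9.52% called lower among all genes tested, and their median log2 fold change was -0.08, against -0.04 over all genes tested. In the fit as reported, and in limma voom, no gene of these lists was called higher, and limma voom called 3 lower. At an unadjusted p under 0.05 in limma, 2 of the 44 were higher and 10 lower, beside 1889 higher and 2287 lower of all 11671 genes tested. Eci2 was called higher in 3 of 17 alternative fits, and the lists do not hold every peroxisomal gene. Over the 6 libraries, the pattern of Cat was compared with those of 50 tested genes of the peroxisomal lists, and Pex5 was the most similar with a Pearson r of 0.868 on the log2 scale. Eci2, a peroxisomal enoyl-CoA isomerase gene, followed at 0.862 and Idh1 at 0.793. For Pex5 the order was Cat at 0.868, Pex14, which encodes the docking partner of PEX5 at the membrane, at 0.799 and Eci2 at 0.752. These correlations are descriptions over 6 libraries that share the difference between the treatments.

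Among the 23 other listed genes of peroxisomal fatty acid oxidation, 16 were tested. In the fit as reported, limma called none of them and limma voom also called 0, while at an unadjusted p under 0.05 there were 1 higher and 2 lower. Lonp2, a peroxisomal protease gene, averaged 19.1 ± 0.341 RPKM with PA and 21.4 ± 1.85 RPKM with BSA (SD, n = 3 libraries each), a log2 fold change of -0.16 (adjusted p = 0.117 from limma), and was called lower without BSA replicate 1 (adjusted p = 0.0316). Eci2 had a log2 fold change of 0.18 (adjusted p = 0.070 from limma), at 20.7 ± 1.52 RPKM with PA and 18.2 ± 0.776 RPKM with BSA (SD, n = 3 libraries each). It was called higher by limma with median-of-ratios scaling (adjusted p = 0.0295), with the GC trend removed (0.0377) and with the replicate block plus GC removal (0.0342). Of this list, Slc27a2, Abcd2, Acot3 and Acot5 were at 0 in all 6 libraries.
Of the 13 other listed peroxins, the proteins that build the organelle, 1 fell and 12 did not pass, beside 9.52% called lower among all genes tested. That 1 was Pex2, a ubiquitin ligase of the importer that helps to recycle PEX5, with a log2 fold change of -0.21 (adjusted p = 0.039 from limma), and it lost the call in 10 of 17 alternative fits. None rose, with 1 higher and 3 lower at an unadjusted p under 0.05, and limma voom called 0 higher and 1 lower. Pex14 had a log2 fold change of 0.13 (adjusted p = 0.119 from limma).
Of 8 genes of the peroxisomal membrane and of fission, 7 were tested and 2 fell, the membrane protein genes Pxmp4 and Pxmp2, with log2 fold changes of -0.45 and -0.37 (adjusted p = 0.039 and 0.041 from limma). Each lost the call in 10 alternative fits, and 9.52% of all genes tested were called lower. Of 4 genes of ether lipid synthesis 1 fell, Far1, which makes the fatty alcohol for plasmalogens, with a log2 fold change of -0.24 (adjusted p = 0.0133 from limma) that was lost without PA replicate 2 or 3 (adjusted p up to 0.062). Of 11 genes of peroxisomal oxidases and redox enzymes only 4 were tested, and neither limma nor limma voom called any of them (0 also at an unadjusted p under 0.05). The most abundant were Prdx5, a peroxiredoxin gene, at 145.1 ± 2.51 RPKM with PA and 152 ± 6.23 RPKM with BSA, and Idh1, an NADPH-producing dehydrogenase gene, at 23.8 ± 2.101 RPKM with PA and 21.6 ± 1.93 RPKM with BSA (SD, n = 3 libraries each).

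**Figure D3:**
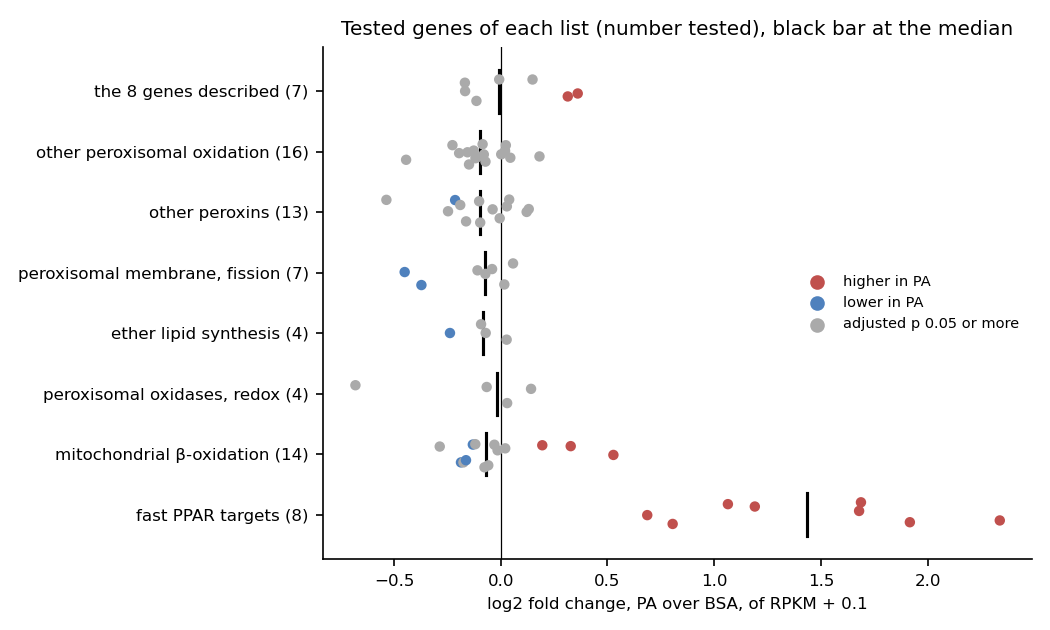
Log2 fold change of RPKM + 0.1, PA over BSA (horizontal axis), of each tested gene in 8 lists (rows, number tested in brackets), red where higher and blue where lower at an adjusted p under 0.05, with a black bar at the list median. The medians of the peroxisomal lists, the 8 genes included, lie between -0.10 and -0.01, and their single genes between -0.68 and 0.36. All 8 tested fast PPAR targets lie between 0.69 and 2.34.

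The response of the peroxisomal genes was set beside that of genes known to react quickly to fatty acids through PPARs. All 8 tested genes of that list rose (of 9), with a median log2 fold change of 1.43 and a range from 0.69 to 2.34. Cpt1a, which forms the carnitine esters of long-chain fatty acids at the mitochondrial outer membrane, had 39.2, 38.7 and 36.7 RPKM in PA-treated PTECs, against 10.8, 10.9 and 8.53 RPKM in BSA-treated PTECs. Angptl4, a secreted inhibitor of lipoprotein lipase, Acot2, a mitochondrial thioesterase gene, and Pdk4, which restrains pyruvate oxidation, had log2 fold changes of 2.34, 1.69 and 1.68 (largest adjusted p = 0.0015 from limma). The earlier results of these data had already shown this rise, so it is not independent support. Of the 14 genes of mitochondrial β-oxidation, 3 rose, 3 fell and 8 did not pass, beside 11.2% called higher and 9.52% called lower among all genes tested. Acaa2, the mitochondrial thiolase, rose with a log2 fold change of 0.53, Acadl, the long-chain acyl-CoA dehydrogenase, with 0.33 and Etfdh with 0.19, while Acadm, the medium-chain dehydrogenase, had a log2 fold change of -0.19 (largest adjusted p = 0.043 from limma). Etfdh lost its call in 7 of 17 alternative fits, and Acadm in 3 (without PA replicate 2 or 3 or BSA replicate 1, adjusted p up to 0.093 from limma). Among PPARs and their partners Pparg rose, at 2.93 ± 0.282 RPKM with PA and 1.97 ± 0.319 RPKM with BSA (SD, n = 3 libraries each, adjusted p = 0.026 from limma), with 4 calls lost in 17 alternatives. Ppard was the most abundant PPAR gene, at 15.98 ± 0.597 RPKM with PA and 14.15 ± 1.07 RPKM with BSA (SD, n = 3 libraries each). All PA libraries were above all BSA libraries for Ppard, but its log2 fold change of 0.18 did not pass (adjusted p = 0.079 from limma). Limma voom called 2 genes of this list higher, against 1 in limma. Ppara itself was near the floor, at 0.0391 ± 0.00618 RPKM with PA and 0.0292 ± 0.0151 RPKM with BSA.

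Ratios of paired genes within each library compared members with counterparts of like role, 3 pairs in all. For the carnitine acyltransferases, Crot over Cpt1a lay between 0.282 and 0.336 in the PA libraries and between 1.16 and 1.44 in the BSA libraries, so Crot was below Cpt1a in every PA library and above it in every BSA library. The difference of the log2 ratios, -2.08, lay almost wholly in Cpt1a, with a log2 fold change of 1.92, whereas that of Crot was -0.17 and did not pass, so the ratio is a description of the rise of Cpt1a already given. Ehhadh over Hsd17b4 differed by -0.27 and Ehhadh over Hadha, the mitochondrial counterpart of both bifunctional enzymes, by -0.15 (two-sided exact permutation p = 0.30 and 0.50, adjusted p = 0.45 and 0.50 over the 3 ratios, where 3 against 3 libraries allow no p under 0.10), and both rest on the few Ehhadh reads.

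**Figure D4:**
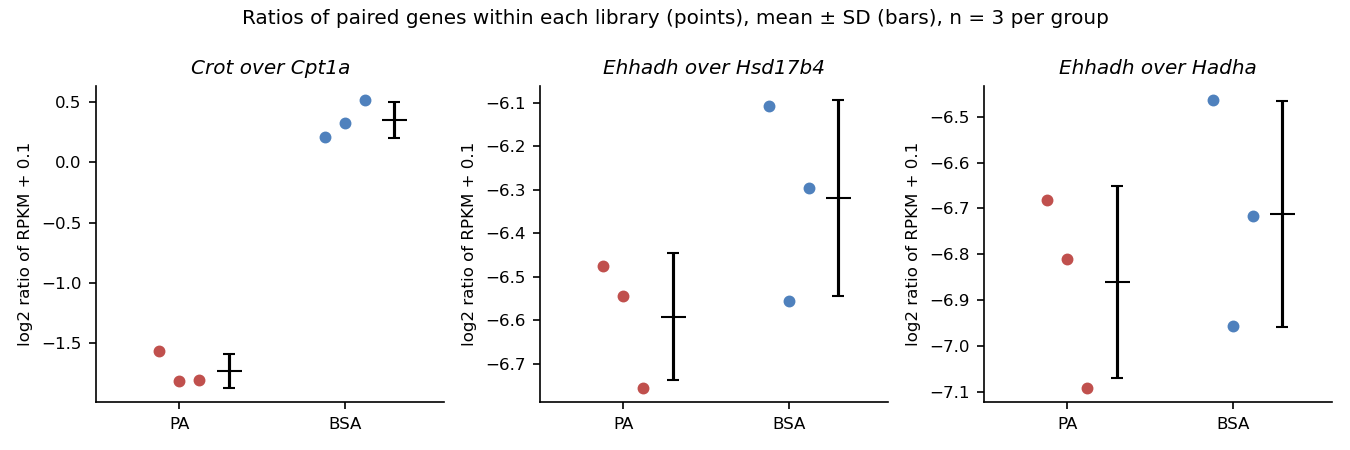
Log2 ratio of RPKM + 0.1 of 3 gene pairs in each library (points), with the mean ± SD of the 3 PA and the 3 BSA libraries. The Crot over Cpt1a ratio differed by -2.08 on the log2 scale, PA minus BSA, most of it from the rise of Cpt1a, and the groups overlap in the other 2 ratios.

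The label of proximal tubule cells was met only in part. Of 14 proximal tubule markers 3 had a mean RPKM over 1 (Lrp2, Aqp1 and Gatm), the transporter genes Slc34a1 and Slc5a2 were near 0 and Miox was at 0 in all libraries, and in limma none of the 4 tested was called (1 lower at an unadjusted p under 0.05 and 1 lower in limma voom). The keratin genes Krt8 and Krt18 were abundant and lower with PA, with log2 fold changes of -0.26 and -0.32 (adjusted p = 0.0028 and 0.0010 from limma). The epithelial surface genes Epcam and Cdh1 were near 0, at 0.176 and 0.0575 RPKM on average with PA and 0.245 and 0.0329 RPKM with BSA. The renal transcription factor genes Pax8 and Pax2 were expressed, at 53.3 and 7.95 RPKM on average with PA and 56.8 and 10.3 RPKM with BSA. Neither was called in limma, and limma voom called 3 genes of this list lower, against 2 in limma. The 6 epithelial and renal markers, mostly Krt8 and Krt18, summed to 623 to 650 RPKM with PA and 755 to 796 RPKM with BSA. The 8 peroxisomal genes, with Cat and Pex5 among them, summed to 138 to 147 RPKM with PA and 127 to 138 RPKM with BSA. The 59 other listed peroxisomal genes summed to 685 to 715 RPKM with PA and 713 to 739 RPKM with BSA. In both peroxisomal sets the ranges of PA and BSA libraries overlapped. Markers of fibroblasts summed to 1.40 to 2.02 RPKM with PA and 2.31 to 2.62 RPKM with BSA. Of these 7 markers 2 were tested, Col1a2 and Pdgfrb, with log2 fold changes of -0.40 and -0.71. Limma called neither (adjusted p = 0.129 and 0.089). Both were lower at an unadjusted p under 0.05 in limma, beside 2287 lower of all 11671 genes tested. Limma voom called both lower, beside 1415 of all genes tested. Markers of endothelium summed to 4.66 to 5.33 RPKM with PA and 4.24 to 4.58 RPKM with BSA, nearly all of it Flt1. Immune markers summed to 12.2 to 15.05 RPKM with PA and 11.3 to 14.8 RPKM with BSA. Nearly all of it came from Cd14 (7.60 and 7.31 RPKM on average with PA and BSA), Csf1r (2.58 and 3.12) and Cd68 (3.05 and 3.02). Ptprc was near 0. Of 10 markers of other nephron segments, 2 had a mean RPKM over 1, Podxl and Synpo. Podxl averaged 21.3 RPKM with PA and 18.5 RPKM with BSA. It was called higher in limma, with a log2 fold change of 0.20 (adjusted p = 0.0157). The call was lost in 2 of 17 alternative fits, and 11.2% of all genes tested were called higher. Synpo averaged 2.24 RPKM with PA and 3.52 RPKM with BSA and was not called. Limma voom called 1 gene of this list higher and 1 lower. The part of these markers in the results was not tested. The libraries held 17679817 to 21568228 reads in the denominators of the RPKM values.

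The rise of Cat and of Pex5 was called in all 17 alternative fits. The log2 fold change of Cat lay between 0.29 and 0.43, with its highest adjusted p at 0.044, and that of Pex5 lay between 0.29 and 0.34, with its highest adjusted p at 0.0115. Abcd3, Hsd17b4 and Pex11a were called in none of the 17 (lowest adjusted p 0.065, 0.551 and 0.112), and Hsd17b4 had the opposite sign in 6.

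**Figure D5:**
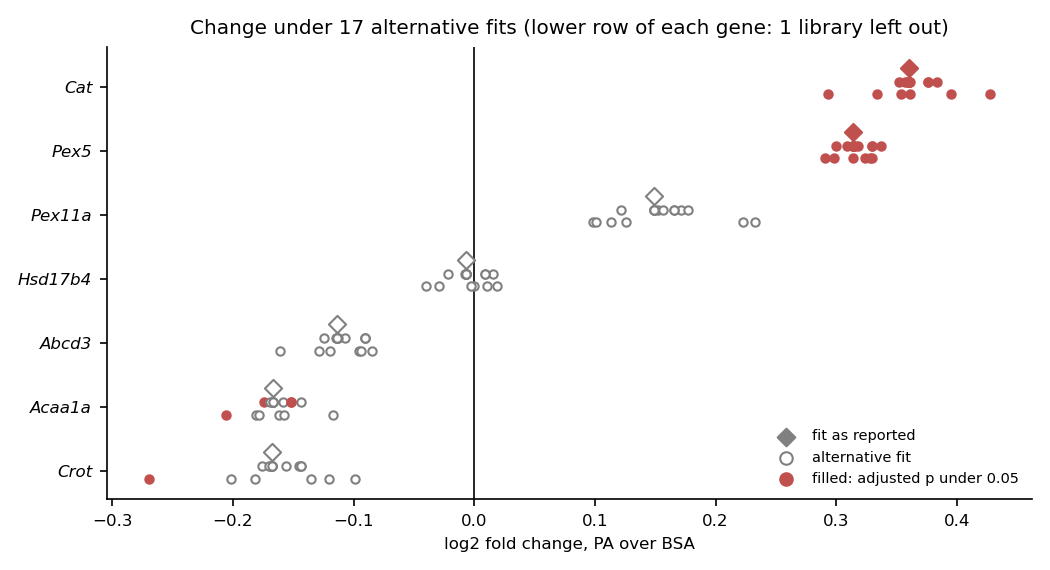
Log2 fold change, PA over BSA (horizontal axis), of the 7 tested genes in the fit as reported (diamonds) and in 17 alternative fits (circles, the lower row of each gene with 1 library left out), filled where the adjusted p was under 0.05. Cat and Pex5 are filled throughout, Acaa1a in 4 alternatives and Crot in 1.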

How the data were processed

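Per the labels and methods, the authors used bcl2fastq for base calls, TopHat2 2.1.1 with Bowtie2 for mapping to GRCm38, and edgeR for their own comparison. They deposited RPKM values per gene and library. No source used here names the read counter, annotation or strand setting. The deposited table also holds the log2 fold change, p-value, adjusted p-value and rank score of the authors' comparison, which were not used. Column names give the treatment by its initial and the replicate by its number, and were assigned to samples on that basis.

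RPKM is not a count, so log2(RPKM + 0.1) was fitted with limma 3.58.1 (R 4.3.3, variance trend, treatment as the only term) for the 11671 genes averaging 0.5 RPKM or more. A call needed an adjusted p (Benjamini-Hochberg, over these genes) under 0.05. Fold changes on this scale understate those of low genes. For 100% of genes the values were whole multiples of a single read's worth (tolerance 1e-06), which gave library sizes and the smallest fitting read numbers, used in limma voom as an alternative. Other alternatives were pseudocounts, filters, scalings, the replicate block, GC trends and single libraries left out. The 8 genes and all lists were chosen with earlier results of these data known. Named genes are the 8, up to 4 called genes per list with the largest change or, where none was called, the 2 most abundant, the genes of the ratios, and the 3 most similar peroxisomal genes for Cat and Pex5. Acaa1b, Myd88, Ppara, Ppard, Lrp2, Slc34a1, Slc5a2, Ptprc, Csf1r, Epcam, Cdh1, Pax8, Pax2, Synpo and the genes at 0 were named after their values were seen. Not every gene the rule names is printed. Certain items are not reported here and were left out of the lists, the similarity comparison and the ratios after the values were seen, so counts over the lists cover only the genes kept, and p-values of the ratios are adjusted over those kept. Positions are from GENCODE vM21 and promoters from RefSeq, where the window with most motif matches was printed. Libraries of 1 treatment differed beyond sampling noise (chi-square per degree of freedom from 1.86 to 8.16), so none was counted as a duplicate.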

Additional observations from a re-analysis of the deposited data

How the results depend on the processing

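The members that rose were 2 in all 17 alternatives. None fell as reported, and 1 fell with quantile normalization, with the GC trend removed per library, and with the replicate block plus GC removal (Acaa1a each time). With single libraries left out the number was between 0 and 1 (Acaa1a without BSA replicate 3, Crot without PA replicate 1). Over all genes 2413 were called, against 1209 to 3021 with single libraries left out, the lowest without PA replicate 2 and the highest without BSA replicate 3. In those fits 818 to 1368 genes were higher and 391 to 1653 lower. With no filter on low values 739 were lower. With median-of-ratios scaling 1476 were higher and 794 lower, against 1302 and 1111 as reported. Ehhadh over Hadha reversed to 0.046 with a pseudocount of 1, which exceeds the Ehhadh means of 0.237 RPKM with PA and 0.310 RPKM with BSA. Hadha itself was called lower, with a log2 fold change of -0.13 (adjusted p = 0.021 from limma), and lost the call in 6 of 17 alternatives. The causes of the other shifts were not tested. Of 17 other named genes that were called, 8 kept the call in each alternative run.

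The replicate numbers gave no clear pairing of the libraries, which does not exclude a small effect shared within a number. Same-numbered libraries deviated from their group means with correlations of 0.035, -0.036 and 0.094 across genes, and not every library correlated best with its own number. With the replicate block 2575 genes were called, 1333 higher and 1242 lower, and 2 members, against 2413 genes without it. The block left the mean differences of the ratios as they were (-0.27, -0.15 and -2.08). Depth limited Ehhadh most, at 11 to 23 recovered reads per library.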
